A study of Mus musculus with 8 samples.

Results

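The endocannabinoid receptors and the enzymes that make and break down their lipid ligands were examined in mouse islets as 10 genes: the receptors *Cnr1*, *Cnr2*, *Gpr55* and *Gpr119*, the synthetic enzymes *Dagla*, *Daglb* and *Napepld*, and the hydrolases *Mgll*, *Faah* and *Abhd6*. They were found through the accession that each array probe carries, which gave 14 probes for the 10 genes, out of 55681 probes and 21154 genes with a named probe on the array. *Mgll* had 4 probes, *Abhd6* had 2 and each of the other genes had 1. RNA from hand-picked islets of male C57BL/6 mice on a standard diet was hybridised to 1-colour Agilent arrays, for 4 mice labelled CB1 WT and 3 labelled CB1 KO. The second CB1 KO mouse was run on 2 repeat arrays, which were averaged, so that 8 arrays gave 7 mice.

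The series title names a beta cell specific knockout, whereas the growth protocol in the labels describes a global one, and the study's methods hold both models. In the beta cell specific model the knockout mice and their control littermates carried floxed *Cnr1* alleles and received tamoxifen. The knockout mice also carried MIP-Cre/ERT, a tamoxifen-inducible Cre recombinase driven by the mouse insulin promoter, and those littermates lacked it; mice with the transgene and no floxed allele, a further control of the study, are not among the array labels. MIP-Cre/ERT is generally described as also carrying a human growth hormone minigene. If the arrays hold that model, as the title says, loss of *Cnr1* and presence of the transgene cannot be told apart, and other islet cells keep *Cnr1*. The age of the mice on the arrays is not given in the sources used here.

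Endocannabinoids are lipids made on demand from membrane phospholipids. Diacylglycerol lipases, encoded by *Dagla* and *Daglb*, release 2-arachidonoylglycerol, and the phospholipase D encoded by *Napepld* releases anandamide and related acylethanolamides. Both kinds of lipid act on the G protein-coupled receptors CB1 and CB2, and some acylethanolamides act on GPR119, which is known in beta cells and gut endocrine cells for raising cAMP. Monoacylglycerol lipase (*Mgll*) and ABHD6 hydrolyse 2-arachidonoylglycerol, and fatty acid amide hydrolase (*Faah*) hydrolyses anandamide.

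All 8 arrays lay on 1 slide with the genotypes on opposite sides, so genotype and place on the slide cannot be told apart. Between 33304 and 39988 probes were well above background on an array. All 8 beta cell markers listed for this work, *Ins1* among them, were above background on every array. The 10 acinar markers, *Cpa1* among them, were above background on every array too, with a summed level of 13.27 to 14.13 in CB1 WT and 13.25 to 14.25 in CB1 KO mice. It was lowest in CB1 WT mouse 2 (13.27) and CB1 KO mouse 3 (13.25). The part of acinar carry-over in the values below was not tested. Levels are log2 intensities with the array's own 75th percentile subtracted. They are not comparable as amounts between probes, and were set against each other only to order probes and genes by brightness and to sum markers. In bulk islet RNA, fewer cells of a type and less RNA per cell cannot be told apart.

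*Cnr1*, which encodes the CB1 receptor and is the gene targeted in these mice, was lower in every CB1 KO mouse than in every CB1 WT mouse, as were 2.00% of all probes tested. Its level was −1.11, −0.77, −0.53 and −0.015 in CB1 WT mice 1 to 4. It was −2.30, −3.13 and −2.28 in CB1 KO mice 1 to 3. The groups were well apart, with more than 1 log2 unit between the lowest CB1 WT and the highest CB1 KO mouse. In intensity, the spot gave 115 to 284 units on the CB1 WT arrays and 23.6 to 74.5 on the CB1 KO arrays. It was well above background on all 4 CB1 WT arrays and on 3 of the 4 CB1 KO arrays, the exception being the second array of CB1 KO mouse 2 (level −3.32, against −2.95 on the first). Some *Cnr1* signal was thus measured on at least 1 array of each CB1 KO mouse.

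The mean level of *Cnr1* was −0.60 ± 0.46 (SD, n = 4) in CB1 WT and −2.57 ± 0.49 (SD, n = 3) in CB1 KO islets, a log2 difference of −1.97 (standard error 0.33). On the linear scale CB1 KO islets held 25.6% of the CB1 WT level, with a 95% confidence interval of 15.2% to 43.2%. The exact permutation test over mice, two-sided, gave p = 0.0286, which is as small as this design permits. Over all 38205 probes tested, *Cnr1* ranked 65 by p and did not pass after Benjamini-Hochberg adjustment (limma adjusted p = 0.189). The probe's position in the transcript and the floxed part of the gene are not given in the sources used here, so the probe may lie outside the deleted part.

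The *Cnr1* difference moved by over 1.5 times under 1 alternative on the log2 scale. With normexp correction and an added offset of 50 on median spot intensities, in place of the processed signal, the log2 difference was −1.08 and CB1 KO islets held 47.2% of the CB1 WT level. Every other alternative on the log2 scale lay between −2.14 and −1.69. Beside it, 7 of the 8 beta cell markers were lower in CB1 KO islets, with a summed level of 11.91 to 12.32 in CB1 WT and 11.62 to 12.18 in CB1 KO mice. Of the 5 alpha cell markers 4 were lower, where 52.6% of all probes were. The summed level of these markers did not overlap between genotypes (9.91 to 10.33 against 9.59 to 9.86). *Gcg* carried most of that sum, and its own level overlapped (lowest CB1 WT mouse 9.71, highest CB1 KO mouse 9.73). By single marker, 1 of the 5 did not overlap and was lower in CB1 KO islets, as were 2.00% of all probes tested. None of these 13 markers passed the adjusted threshold, 2 had an unadjusted limma p under 0.05 (3.62% of all probes did), and their part in the *Cnr1* result was not tested.

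**Figure D1:**
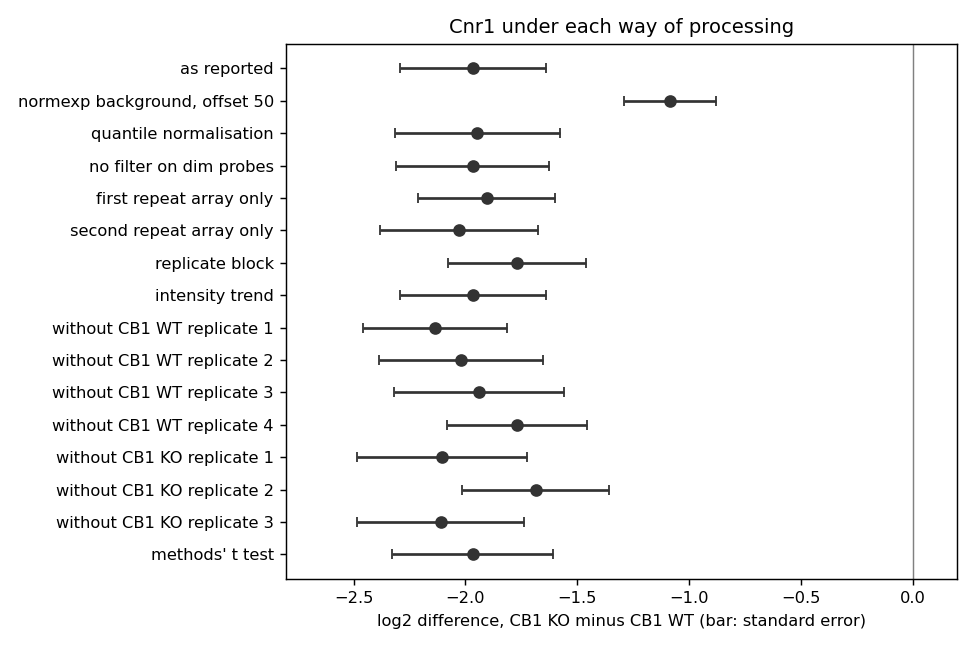
Log2 difference in *Cnr1* level between CB1 KO and CB1 WT islets (x axis, log2 units; bars are standard errors) as reported and under each alternative way of processing or testing on that scale (y axis); the deposited Z scores, in other units (difference −0.65), are not drawn. All points lie below 0; normexp with its offset gives −1.08 and the others −2.14 to −1.69.

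*Cnr2* encodes CB2, the cannabinoid receptor best known from immune cells. Its level was 1.39, 1.48, 1.21 and 1.51 in CB1 WT mice 1 to 4, and 2.06, 2.69 and 1.38 in CB1 KO mice 1 to 3. CB1 KO mice 1 and 2 were above all CB1 WT mice, while CB1 KO mouse 3 lay within their range, so the groups overlapped. The repeat arrays of mouse 2 gave 2.69 and 2.70, so the high value was there on both. The mean was higher by 0.65 on the log2 scale (standard error 0.30, limma adjusted p = 0.999, unadjusted p = 0.0665), or 1.57-fold with an interval of 0.962 to 2.55-fold. The exact permutation test gave p = 0.114. Without CB1 KO mouse 2 the log2 difference was 0.32, and without CB1 KO mouse 3 it was 0.98 (adjusted p = 0.478). The paper reported significantly lower *Cnr2* expression in islets of its beta cell specific knockout mice, the opposite direction. Whether it was measured in the mice on the arrays is not given in the sources used here.

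Markers of immune cells were read beside *Cnr2*. All 9 macrophage markers, *Cd68* among them, had a higher mean in CB1 KO islets, as had 7364 of the 16695 genes tested. The markers had a median log2 difference of 0.42 and none passed the adjusted threshold. None had an unadjusted limma p under 0.05 either (3.62% of all probes did). Their summed level was 5.48 to 5.91 in CB1 WT and 5.90 to 6.54 in CB1 KO mice. *Itgam*, named after its values were seen, carried most of that sum. Among single markers 5 were highest in CB1 KO mouse 2, where *Cnr2* was highest, and 4 in CB1 KO mouse 3, where *Cnr2* lay in the CB1 WT range. Among B cell markers *Cd79b* was the 1 of 5 that could be tested, and their summed level was −1.48 to −0.42 against −1.19 to −0.90. The T cell markers, *Cd3d* first on the list but too dim to test, summed to 3.24 to 3.72 against 3.28 to 3.35. Of the 4 that could be tested 3 were higher and 1 lower in CB1 KO islets. The lower was *Cd3e*, named after its values were seen (log2 difference −0.64, limma unadjusted p = 0.0461, adjusted p = 0.999). The part of these cells in the *Cnr2* values was not tested.

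*Gpr55*, a receptor for lysophosphatidylinositol that also binds some cannabinoids, was close to background. Its level was −1.09, −3.30, −3.07 and −4.04 in CB1 WT mice and −2.71, −2.77 and −3.03 in CB1 KO mice. A single mouse, CB1 WT mouse 1, stood well above the rest, at 117 intensity units against 17.4 to 31.5 on the other CB1 WT arrays. The probe was well above background on 3 of 4 arrays in each genotype. The log2 difference of 0.038 (standard error 0.61, limma adjusted p = 0.999) had an interval of −1.38 to 1.46, and the repeat arrays alone differed by 0.85. At this signal the interval allowed from 0.384 to 2.74-fold. Without CB1 WT mouse 1 the log2 difference was 0.63 (adjusted p = 0.939).

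*Gpr119*, the receptor for oleoylethanolamide and related lipids, was well above background on every array. Its level was 0.45, 0.23, 0.38 and 0.50 in CB1 WT mice, which lay close together. It was 0.52, −0.040 and 1.41 in CB1 KO mice, so that mouse 2 was below all CB1 WT mice, mouse 1 just above them and mouse 3 well above. The SD between mice was 0.12 (n = 4) in CB1 WT and 0.73 (n = 3) in CB1 KO islets. Their means differed by 0.24 (log2, standard error 0.33, limma adjusted p = 0.999; exact permutation p = 0.629) with an interval of −0.51 to 1.00. It was 0.58 without CB1 KO mouse 2 and −0.15 without CB1 KO mouse 3, so its direction rested on mouse 3.

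**Figure D2:**
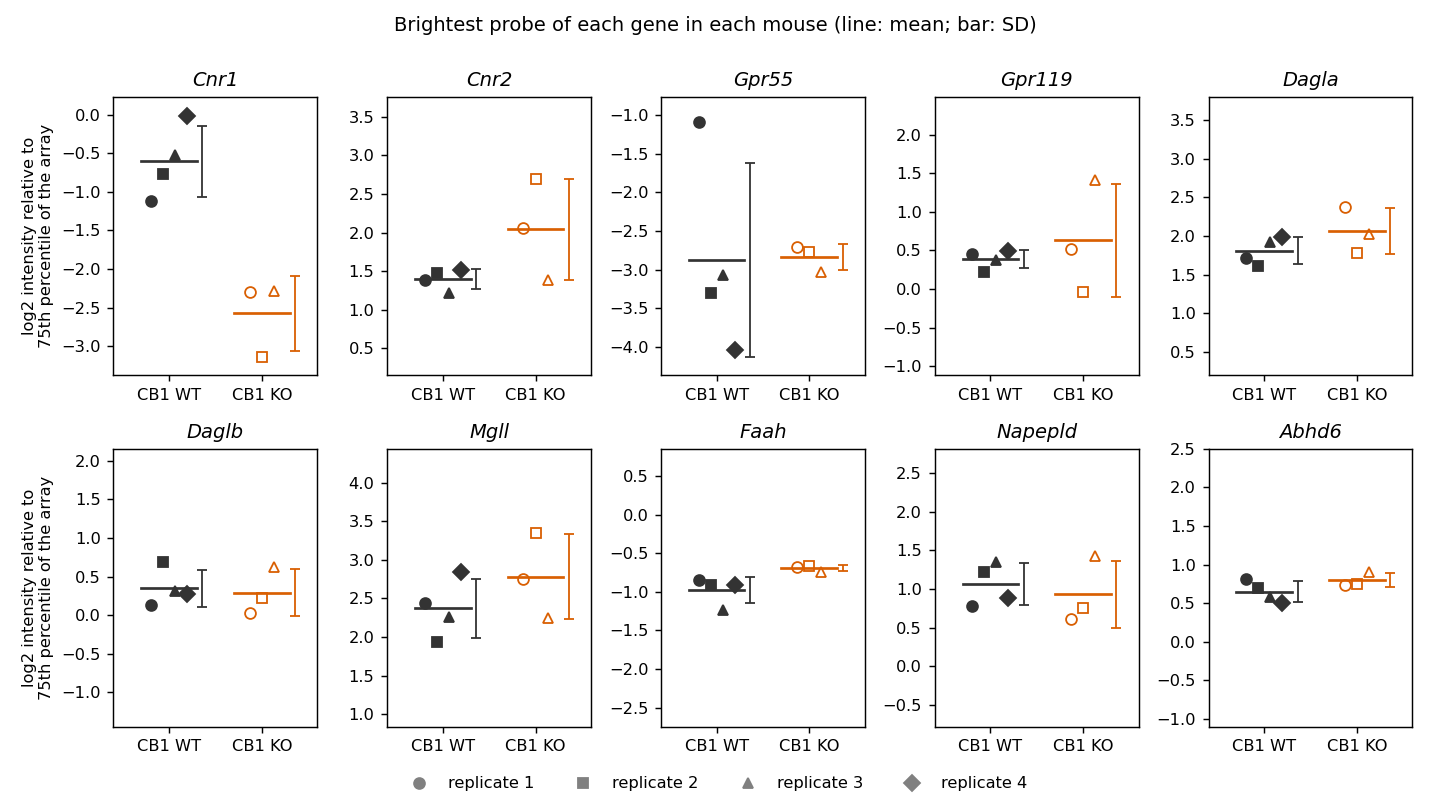
Log2 intensity relative to the array's 75th percentile (y axis) of the brightest probe of each of the 10 genes in 4 CB1 WT (filled) and 3 CB1 KO (open) mice; lines are means and bars are SDs. Every panel spans the same number of log2 units. *Cnr1* separates the genotypes by the widest gap (highest CB1 KO mouse −2.28, lowest CB1 WT mouse −1.11), *Faah* by a narrow one, and the other 8 genes overlap.

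Of the 3 genes for enzymes that make endocannabinoids, 1 had a higher and 2 a lower mean in CB1 KO islets, and none passed the adjusted threshold. *Dagla*, the diacylglycerol lipase that dominates in brain, had a level of 1.72, 1.61, 1.93 and 1.99 in CB1 WT mice and of 2.38, 1.78 and 2.02 in CB1 KO mice. CB1 KO mouse 2 lay within the CB1 WT range and the other two above it. This gave a log2 difference of 0.25 (standard error 0.21, limma adjusted p = 0.999), or 1.19-fold with an interval of 0.844 to 1.68-fold. It was 0.091 on the log2 scale without CB1 KO mouse 1 and 0.39 without CB1 KO mouse 2.

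*Daglb*, the diacylglycerol lipase known for its part in macrophages and liver, was printed as 10 spots on each array, which shows the error of printing and scanning but not that of labelling or hybridisation. The SD between these spots within an array was 0.040 to 0.20, against 0.24 between CB1 WT mice and 0.31 between CB1 KO mice. The mean level per mouse was 0.13, 0.69, 0.31 and 0.27 in CB1 WT islets and 0.024, 0.23 and 0.63 in CB1 KO islets. The groups overlapped over nearly their whole range. The mean log2 difference was −0.058 (standard error 0.23, limma adjusted p = 0.999), or 0.961-fold with an interval of 0.667 to 1.38-fold. Its sign turned without CB1 WT mouse 2 (0.055) and without CB1 KO mouse 1 (0.076). On the array of CB1 WT mouse 2, which gave the highest level, 2 of the 10 spots were marked as irregular and left out.

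*Napepld*, whose product makes anandamide and other acylethanolamides, had a level of 0.78, 1.22, 1.35 and 0.89 in CB1 WT mice and of 0.61, 0.76 and 1.43 in CB1 KO mice. CB1 KO mice 1 and 2 were below all CB1 WT mice and mouse 3 was above them. The genotypes differed by −0.13 on the log2 scale (standard error 0.26, limma adjusted p = 0.999), or 0.914-fold with an interval of 0.599 to 1.39-fold. Without CB1 KO mouse 1 it was 0.031, with the sign turned.

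For the hydrolases, the mean of every tested probe was higher in CB1 KO islets, and none passed the adjusted threshold. *Mgll* encodes the main enzyme that removes 2-arachidonoylglycerol and also takes part in clearing monoacylglycerols from fat breakdown. Its brightest probe had a level of 2.44, 1.94, 2.27 and 2.84 in CB1 WT mice and of 2.75, 3.34 and 2.25 in CB1 KO mice. CB1 KO mouse 2 was above all other mice, and the groups overlapped. The second probe, which carries the same accession, gave 1.14, 0.61, 0.91 and 1.38 against 1.41, 2.09 and 0.81, and placed the mice in nearly the same order. The third, which carries the accession of another transcript variant, gave −1.56, −0.82, −1.39 and −1.21 against −1.29, 0.14 and −1.50. Here too CB1 KO mouse 2 was highest, but CB1 WT mouse 2, lowest on the first pair of probes, was highest among the CB1 WT mice. The fourth probe was above background on no array.

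The log2 differences of the *Mgll* probes were 0.41, 0.43 and 0.36 (standard errors 0.32, 0.33 and 0.41; limma adjusted p = 0.999 for each), 1.28 to 1.34-fold on the linear scale. Intervals reached from 0.670 to 2.46-fold across the 3 probes. Probes of 1 gene share the same RNA and are not separate evidence. Without CB1 KO mouse 2 the difference of the brightest probe was 0.13, and without CB1 KO mouse 3 it was 0.68. The repeat arrays of CB1 KO mouse 2 differed by 0.051 to 0.10 on these probes, less than the SD between mice of either genotype (0.32 to 0.90).

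**Figure D3:**
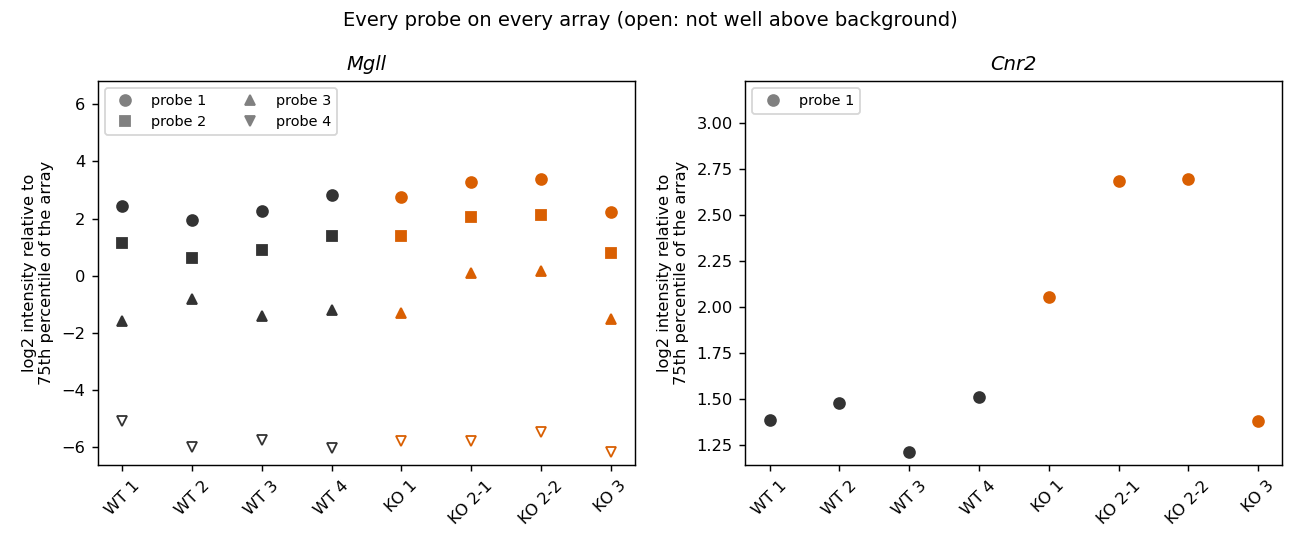
Log2 intensity relative to the array's 75th percentile (y axes, different scales) of the 4 *Mgll* probes and of the *Cnr2* probe on each of the 8 arrays (x axes; KO 2-1 and KO 2-2 are repeat arrays of 1 mouse; open symbols are not well above background). For *Cnr2* and *Mgll* probes 1 to 3, both arrays of CB1 KO mouse 2 are above the other arrays (2.69 and 2.70 for *Cnr2*), and *Mgll* probe 4 lies at background throughout.

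*Faah*, which ends anandamide signalling, was higher in every CB1 KO mouse than in every CB1 WT mouse, as were 2.15% of all probes tested. Its level was −0.85, −0.91, −1.23 and −0.91 in CB1 WT mice and −0.67, −0.66 and −0.74 in CB1 KO mice. The gap between the groups was narrow, with CB1 WT mouse 1 just below CB1 KO mouse 3. The log2 difference was 0.28 (standard error 0.18), or 1.22-fold with an interval of 0.911 to 1.63-fold. It did not pass in limma (p = 0.157, adjusted p = 0.999), and the exact permutation test gave p = 0.0571. The methods' t test without adjustment gave 0.0419 for the same values, and the SD was 0.17 (n = 4) between CB1 WT and 0.042 (n = 3) between CB1 KO mice. With normexp and its offset the log2 difference was 0.12.

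*Abhd6*, a monoacylglycerol hydrolase at the inner face of the plasma membrane that is known in beta cells for limiting insulin secretion, varied little between mice, with an SD of 0.14 (n = 4) in CB1 WT and 0.092 (n = 3) in CB1 KO islets on its brightest probe. That probe had a level of 0.81, 0.70, 0.58 and 0.50 in CB1 WT mice and of 0.74, 0.75 and 0.90 in CB1 KO mice. The dimmer probe gave −0.59, −0.42, −0.56 and −0.86 against −0.47, −0.40 and −0.60. On both probes the groups overlapped. The log2 differences were 0.15 and 0.11 (standard errors 0.18 and 0.19, limma adjusted p = 0.999 for both), and their intervals allowed from 0.802 to 1.47-fold. For the brightest probe the log2 difference was 0.095 to 0.20 with each mouse left out and 0.093 with normexp and its offset.

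**Figure D4:**
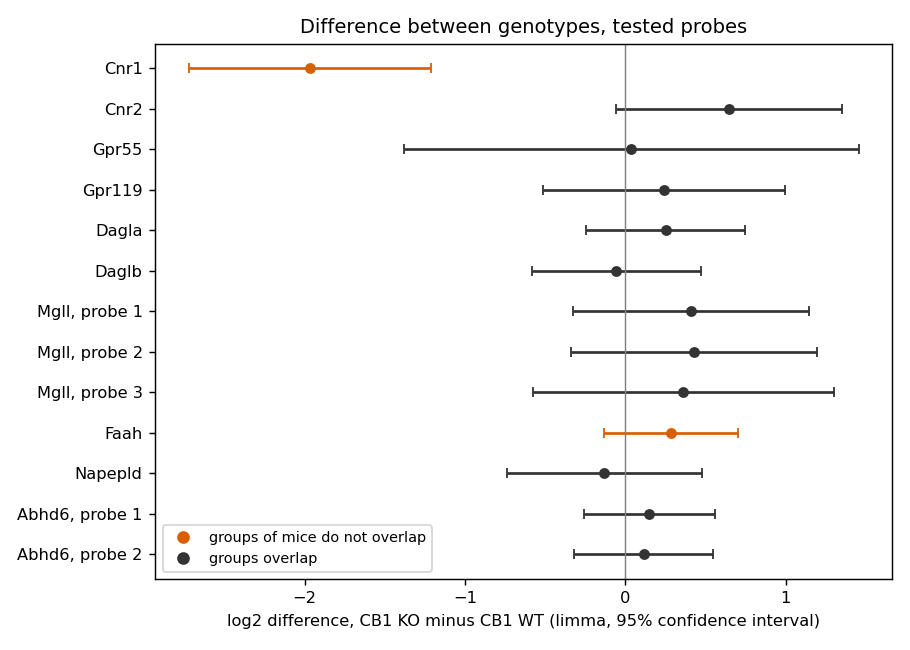
Log2 difference in level between CB1 KO and CB1 WT islets (x axis, points) with its 95% confidence interval from limma for the 13 tested probes of the 10 genes (y axis). The interval of *Cnr1* (−2.72 to −1.21) lies below 0 before adjustment for the number of probes, and those of the other 12 probes include 0.

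As a group, 7 of the 10 genes had a higher and 3 a lower mean in CB1 KO islets, with a median log2 difference of 0.20 against −0.041 over the 16695 genes tested; of all probes, 52.6% were lower. With adjusted limma p-values under 0.05, 0 of the 10 genes passed, where 0.113% of all probes tested did, 0.110% higher and 0.00262% lower. At an unadjusted p under 0.05, 1 gene (*Cnr1*) passed, against 3.62% of all probes. The mice of the genotypes did not overlap for 2 of the 10 genes, *Cnr1* and *Faah*, where 4.14% of all probes showed this. The methods' t test placed 0 of the 10 past the threshold after Benjamini-Hochberg adjustment and *Cnr1* and *Faah* past it without.

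Around these 10 genes, 63 others of the pathway were listed by role, and 53 of them could be tested. None passed the adjusted threshold in limma, and 2 had an unadjusted p under 0.05, where 3.62% of all probes did. Of the 53 genes, 30 were higher and 23 lower, with a median log2 difference of 0.032 against −0.041 over all genes tested. *Gpr18*, *Pla2g4e*, *Ptpn22* and *Ptgs2* were above background on no array. *Ptgs2* encodes cyclooxygenase-2, which oxidises 2-arachidonoylglycerol and anandamide. The groups of mice did not overlap for 3 of the 53 genes, where 4.14% of all probes showed this: *Gdpd1*, *Abhd16a* and *Plcb3*, the last named after its values were seen. All 3 were higher in CB1 KO islets.

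Among enzymes of the alternative routes to acylethanolamides, 5 of 7 tested genes were higher and 2 lower. *Gdpd1* and *Gdpd3* encode lysophospholipase D enzymes that act on N-acyl lysophospholipids. *Gdpd1* had levels of 0.50, 0.0029, 0.55 and 0.58 in CB1 WT and of 0.83, 1.01 and 1.21 in CB1 KO mice, with a log2 difference of 0.61 (standard error 0.22, limma adjusted p = 0.999) and an exact permutation p of 0.0286. *Gdpd3* had levels of 1.66, 1.62, 1.74 and 1.54 in CB1 WT mice, which were close together, and of 0.73, −0.78 and 1.58 in CB1 KO mice, which were not. Its log2 difference was −1.13 (standard error 0.49, limma adjusted p = 0.999), and CB1 KO mouse 3 lay within the CB1 WT range. *Plaat3*, an acyltransferase of the same routes, had a log2 difference of −0.11.

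Among other receptors and partners of CB1, 5 of 10 tested genes were higher and 5 lower. The ion channel gene *Trpa1* was above background on 3 CB1 WT arrays and on no CB1 KO array. With each CB1 KO array raised to at least the dimmest signal still well above background on it, the CB1 WT mean was 1.13-fold the CB1 KO mean. That CB1 WT mean includes CB1 WT mouse 1 at −4.63, not above background, so 1.13 is not a strict lower bound. The groups of mice overlapped. The interval of the fit for CB1 KO over CB1 WT, 0.327 to 1.18-fold, included no difference (limma adjusted p = 0.999). The genotypes differed on the log2 scale by −0.32 for *Gprasp1*, a sorting protein of G protein-coupled receptors, and by 0.15 for *Pparg*, a nuclear receptor for fatty acid derivatives. Phospholipases that supply diacylglycerol split 6 higher and 3 lower, with 0.29 for *Plcb1*, −0.34 for *Plcg2* and −0.31 for *Plcb4*. *Plcb1*, *Plcg2* and *Plcb4* encode phospholipase C enzymes that cleave phosphoinositides downstream of surface receptors.

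Other hydrolases of these lipids and their precursors split 5 higher and 3 lower. Log2 differences were −0.37 for *Pnpla6*, a lysophospholipase, 0.21 for *Abhd16a*, a phosphatidylserine lipase, and −0.34 for *Lipe*, hormone-sensitive lipase. Of the oxidising enzymes 3 of 6 could be tested, with −0.57 for *Alox12*, a lipoxygenase, 0.33 for *Ptgs1*, cyclooxygenase-1, and 0.032 for *Ptges*, a prostaglandin E synthase. All 3 had an adjusted p of 0.999.

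Of the 5 intracellular carriers 3 were higher and 2 lower. *Fabp5*, a fatty acid binding protein that carries anandamide in cells, was at 2.02, 1.55, 1.82 and 2.93 in CB1 WT mice and at 2.76, 3.76 and 2.27 in CB1 KO mice, with a log2 difference of 0.85 (standard error 0.43, limma adjusted p = 0.999). *Fabp4*, the adipocyte and macrophage member of that family, had 0.87 (standard error 0.51), and *Scp2* had −0.12. For both *Fabp* genes CB1 WT mouse 4 was the highest of its genotype and above at least 1 CB1 KO mouse. That mouse also had the highest summed level of stellate cell and fibroblast markers, *Col1a1* first on the list (5.11, against 1.99 to 2.63 in the other CB1 WT mice and 3.24 to 3.79 in CB1 KO mice); their part in these values was not tested. Kinases and acyltransferases that compete for diacylglycerol and monoacylglycerol split 4 higher and 7 lower, with −0.37 for *Dgkb*, −0.17 for *Dgkg* and 0.25 for *Dgkh*, all diacylglycerol kinases.

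**Figure D5:**
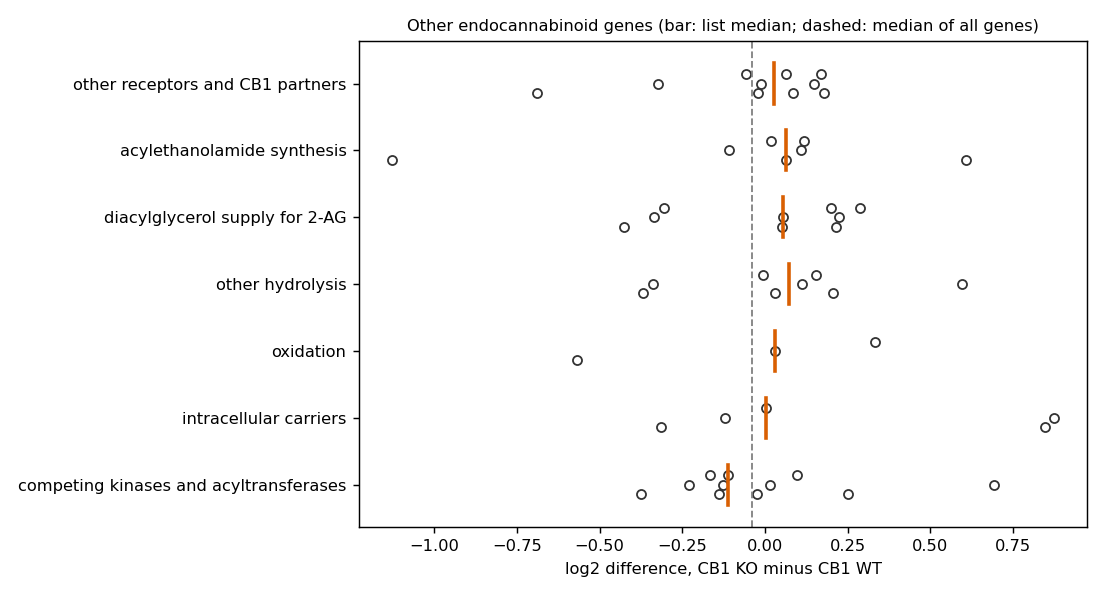
Log2 difference in level between CB1 KO and CB1 WT islets (x axis) of each tested gene in 7 lists of other endocannabinoid pathway genes (y axis); each circle is 1 gene, bars are list medians and the dashed line is the median of all genes tested (−0.041). List medians run from −0.11 to 0.071, and no gene passed the adjusted threshold.

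The genes whose level followed the members most closely over the 7 mice were searched for among 16679 genes. For *Cnr1* these were *F13a1* and *Chtf18* (Pearson r = 0.978 and 0.971), for *Mgll* they were *Sult1a1*, *Phb2* and *Card10* (0.988, 0.988 and 0.983), and for *Dagla* they were *Deptor*, *Zbtb21* and *Net1* (0.969, 0.966 and 0.943). The points share the difference between genotypes and the scaling of each array, and the genes were picked for these values, so they are a description with no test. *F13a1*, which encodes the A chain of coagulation factor XIII, had a log2 difference of −1.77 (limma adjusted p = 0.185).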

How the data were processed

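The authors deposited scanner output as intensity values (Agilent Feature Extraction 11.5.1.1), with the background subtracted and a spatial trend removed within each array and no scaling between arrays, and a Z score for each spot. The deposited Z score matched the standardised log10 intensity over all spots to within 0.00503. The array design's header names build mm9; gene symbols came from RefSeq accessions (GRCm38.p6), which named 28026 of 55681 probes, and no coordinates were used.

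Here the 75th percentile of each array was subtracted from its log2 intensities, over 59305 non-control spots. Irregular spots were left out, spots of a probe and repeat arrays were averaged, and 38205 probes well above background in at least 3 mice were tested with limma 3.58.1 (R 4.3.3); p-values were two-sided, adjusted by Benjamini-Hochberg, and read at 0.05. No spot was saturated. The repeat arrays differed by an SD of 0.43, mice of 1 genotype by 0.52 to 0.87; with 7 mice, the number of arrays limits the precision. Single values were tested by exact permutation over 35 splits. The code was tested on simulated data. For a probe that no array of 1 genotype measured above background, the fold between means is given as a bound beside the fit, set by the dimmest signal still well above background there (or the probe's own signal, if brighter). Summed marker levels are the log2 of summed linear values. Nothing says that samples sharing a label came from separate cages or days, so p-values measure the spread between these mice.

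The members and lists were chosen with earlier results of these data known. Genes are named by rule: all members with every probe, the 3 genes with the largest moderated statistic of each pathway list, the first marker of a list and markers at background, and the 3 genes most like *Cnr1* and like the 2 brightest members; some that the rule picks are not reported here. Duct cell markers (*Krt19* first), endothelial (*Pecam1*), delta and PP cell (*Sst*) and Schwann cell and neuron markers (*Sox10*) had summed levels that overlapped between genotypes. Alternatives were a normexp background (offset 50, on median spot intensities), quantile normalisation, the deposited Z scores, other filters, either repeat array, the methods' t test, an intensity trend, a block for replicate number, other probes and each mouse left out.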

Additional observations from a re-analysis of the deposited data

How the results depend on the processing

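None of the 10 genes, where tested, passed the adjusted threshold under any of the 18 alternatives, all of them limma fits but the methods' t test. At an unadjusted p under 0.05 it was 1 gene (*Cnr1*) in the reported fit and 0 to 2 under the alternatives. *Cnr1* was lower in CB1 KO islets under all 16 alternatives that could test it, with adjusted p from 0.111 to 0.846 and log2 differences of −2.14 to −1.69 with each mouse left out; only probes above background on all arrays left *Cnr1* and *Gpr55* untested. The sign turned for *Gpr55* with normexp (−0.11), quantile normalisation (−0.00088), the second repeat array alone (−0.10) and with mice left out (−0.35 to 0.63), for *Gpr119* (−0.15 to 0.58), *Daglb* (−0.23 to 0.076) and *Napepld* (−0.38 to 0.031) with mice left out, all far from the threshold; the cause was not tested. The number of probes past the threshold, 43 as reported, was 24 when a probe had to exceed background on each array, 23 when dim probes were kept, 0 with the methods' t test (1385 at an unadjusted p under 0.05) and 0 to 42 with each mouse left out; it was 0 without CB1 KO mouse 2, 6 without CB1 KO mouse 3, and 8, 15, 24 and 27 without CB1 WT mice 3, 2, 4 and 1. With the replicate number as a block (replicate block), the log2 difference was −1.77 for *Cnr1* and −0.35 for *Gpr55*, and 0 probes passed (1689 at an unadjusted p under 0.05). Whether the numbers pair the mice is not known. The deviations of same-numbered mice correlated at 0.432, −0.276 and −0.0648, and those of CB1 WT mouse 2 and CB1 KO mouse 3 at 0.514. With so few mice these values cannot decide it. A block for slide or scan was not run, because all arrays shared 1 slide and 1 scan. Dim signal limits *Gpr55* and, in CB1 KO islets, *Cnr1*.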
